A study of Mus musculus with 5 samples.

Results

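The 5 genes described here are the TAM receptors Tyro3, Axl and Mertk and their protein ligands Gas6 and Pros1, taken by name from the 31053 genes of the count matrices. Their UMIs were summed in 5 single-cell RNA-seq libraries of sorted mouse liver cells. All mice were male Rosa26mTmG;Col1a1-Cre animals on the C57BL/6J background, in which Col1a1-Cre switches a membrane reporter to GFP in cells that express, or once expressed, collagen type I. They received diethyl nitrosamine (DEN, 10 mg/kg) at 2 weeks of age and liquid Western alcohol diet (WAD) with 3.5% v/v ethanol for 5 months from 6 weeks of age, or saline and chow over the same period. Non-parenchymal cells were sorted on GFP and on the autofluorescence of vitamin A (VitA), the store that marks quiescent hepatic stellate cells. GFP-positive cells were split by the gate into VitA+Col1a1+ and VitA-Col1a1+ libraries, for DEN+WAD livers and again for chow livers, and the remaining library, from DEN+WAD livers, carries the label VitA-Col1a1-. How many animals were pooled in each library is not given in the labels. Each group was 1 library, so no difference below has a replicate check. The intervals are 95% intervals that cover counting error only.

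TAM receptors are receptor tyrosine kinases that sense phosphatidylserine exposed on dying cells. They do not bind the lipid directly: Gas6 and protein S, the product of Pros1, carry a vitamin K-dependent Gla domain that holds the lipid while their C-terminal part engages the receptor. Gas6 binds all of the TAM receptors, whereas protein S is a ligand of Tyro3 and Mertk and also serves as an anticoagulant cofactor. Mertk is known for the uptake of apoptotic cells by macrophages, including the Kupffer cells of the liver, and Axl for signalling in activated fibroblasts, stellate cells and inflamed myeloid cells.

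The promoters of Gas6 and Axl are shown because both genes were higher in the VitA- gate of each diet, as was Tyro3 on few UMIs. Each run is the 250 bases before the RefSeq start, read on the strand of the gene, from chr8:13494536-13494785 and chr7:25788734-25788983, both on the minus strand of GRCm38.p6. Capitals mark matches on either strand to GGGCGG (the GC box), which reads CCGCCC on the other strand, or to GGAATG (the TEAD motif).
Gas6: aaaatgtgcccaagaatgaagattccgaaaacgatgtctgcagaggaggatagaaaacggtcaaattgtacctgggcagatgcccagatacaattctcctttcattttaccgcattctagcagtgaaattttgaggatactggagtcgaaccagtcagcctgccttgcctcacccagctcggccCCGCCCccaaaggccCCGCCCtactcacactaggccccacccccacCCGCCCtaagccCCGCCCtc
Axl: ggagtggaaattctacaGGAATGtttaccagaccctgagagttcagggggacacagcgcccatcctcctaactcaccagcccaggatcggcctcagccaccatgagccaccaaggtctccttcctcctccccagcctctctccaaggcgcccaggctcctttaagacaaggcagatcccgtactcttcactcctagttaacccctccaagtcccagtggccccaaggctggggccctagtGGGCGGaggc
The Gas6 window held 4 GC boxes, starting 66, 51, 20 and 8 bases before the start. The Axl window held 1 GC box starting 10 bases before the start and 1 TEAD motif starting 233 bases before it. A search on both strands for the AP-1 motif TGANTCA, the nuclear receptor half-site AGGTCA and the E-box CACGTG found no match in either window, nor in those of Pros1, Mertk and Tyro3. Among 32851 RefSeq promoters cut to the same length, 32.7% held a GC box, 12.6% the TEAD motif, 6.75% the AP-1 motif, 14.0% the half-site and 6.02% the E-box. Pros1 held 5 GC boxes and Mertk and Tyro3 held 3 each. These matches describe the letters of the windows and were not tied to any level below.

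The libraries held 10481 cells (VitA+Col1a1+ DEN+WAD), 2729 cells (VitA-Col1a1+ DEN+WAD), 259 cells (VitA+Col1a1+ chow), 668 cells (VitA-Col1a1+ chow) and 9870 cells (labelled VitA-Col1a1-). Their median depth ran from 9105.5 to 24077 UMIs a cell, and pairs of libraries shared 0 to 21 cell barcodes. All 5 carry the label hepatic stellate cell, and all 15 stellate markers had UMIs in each. The summed level of that list was 51883 and 48595 UMIs per 1000000 (CPM) in the VitA+ libraries of DEN+WAD and chow and 12258 to 26708 CPM in the other libraries. The library labelled VitA-Col1a1- held 5196 mesenchymal cells, a class set by RNA and not by GFP or vitamin A. Macrophage markers summed to 6270.4 CPM in it against 2.44 to 26.9 CPM elsewhere. The label hepatic stellate cell thus does not describe all of its cells. Cells were therefore also read by class. Mesenchymal cells were those in which Dcn, Col3a1 and Colec11 summed to 20 or more per 10000 UMIs, and they were split by Lrat, the enzyme that esterifies vitamin A in stellate cells. Of the remaining cells, those with a Pecam1 UMI, a C1qa UMI or both formed 3 further classes. Because the assay counts 3' ends, levels are compared within a gene and not between genes.

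Gas6 (ENSMUSG00000031451) lies on the minus strand of GRCm38 at chr8:13465374-13494490. Its level was 24.0 CPM in VitA+Col1a1+ DEN+WAD cells (95% interval 23.2 to 24.8), 892 CPM in VitA-Col1a1+ DEN+WAD cells (883 to 900.06), 23.9 CPM in VitA+Col1a1+ chow cells (20.2 to 28.1), 1799 CPM in VitA-Col1a1+ chow cells (1777 to 1820.3) and 177 CPM in the library labelled VitA-Col1a1- (174 to 179). Both VitA+ libraries were low, with overlapping intervals, and the highest level was that of the VitA- chow library. The ligand was also unevenly spread over cells: the 5% of cells with the most Gas6 UMIs held 92.7% and 96.6% of all Gas6 UMIs in the VitA+ libraries of DEN+WAD and chow, but 39.3% and 20.0% in the VitA- libraries. The most Gas6 UMIs in a single cell was 379, in the VitA- DEN+WAD library. Tmem255b overlaps Gas6 on the other strand and had at most 11 UMIs in a library.

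Pros1 (ENSMUSG00000022912), on the plus strand at chr16:62854307-62929346, was near level in all 5 libraries. It was at 148, 161, 160.4, 146 and 153 CPM in VitA+ DEN+WAD, VitA- DEN+WAD, VitA+ chow, VitA- chow and labelled VitA-Col1a1- cells, and the 5% of cells with the most Pros1 UMIs held 15.1% to 22.0% of them. The ligands thus had unlike patterns, with Gas6 far apart between the gates and Pros1 in a narrow band.

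The receptor Axl (ENSMUSG00000002602), on the minus strand at chr7:25757273-25788705, was at 79.4 CPM in VitA+ DEN+WAD, 115 CPM in VitA- DEN+WAD, 57.8 CPM in VitA+ chow, 184 CPM in VitA- chow and 145 CPM in labelled VitA-Col1a1- cells. Its order from low to high in the 4 Col1a1+ libraries was that of Gas6, though the Gas6 intervals of the VitA+ pair overlapped. Mertk (ENSMUSG00000014361), on the plus strand at chr2:128698956-128802894, was at 24.9, 49.0, 41.5, 36.1 and 83.1 CPM in the same order of libraries and was highest in the library labelled VitA-Col1a1-, which held the macrophage-rich classes. Tyro3 (ENSMUSG00000027298), on the plus strand at chr2:119797733-119818104, is the receptor best known from neurons and gave few UMIs. Its levels were 1.65 CPM (247 UMIs), 3.25 CPM (155 UMIs), 1.30 CPM (8 UMIs), 5.53 CPM (83 UMIs) and 2.03 CPM (214 UMIs). An antisense gene inside Mertk, Gm14011, had at most 9 UMIs in a library.

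**Figure D1:**
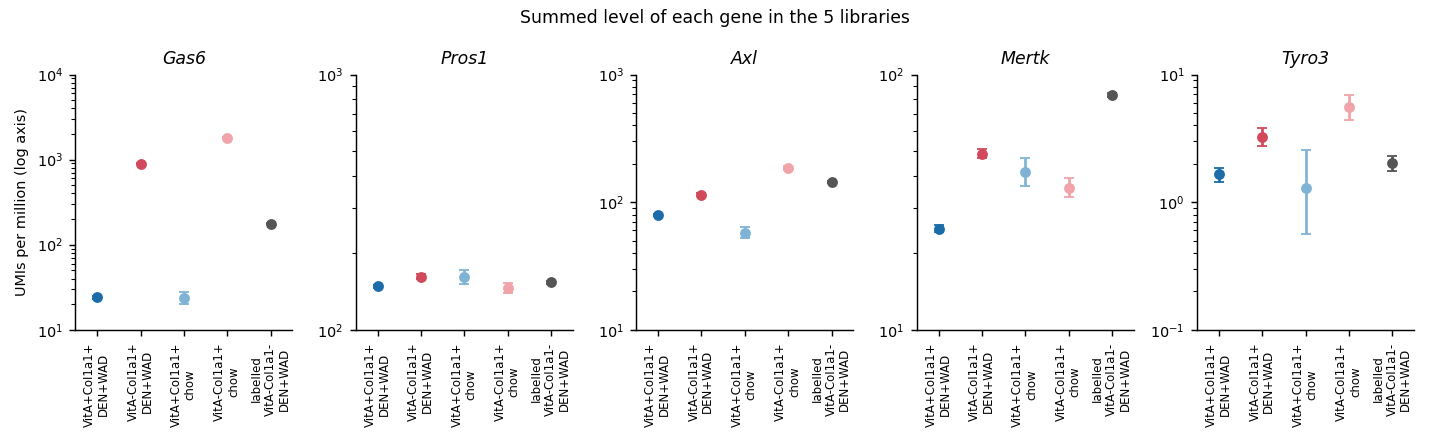
Summed level of each gene in CPM on a log axis (each panel with its own range) in the 5 libraries, with 95% counting intervals as bars. Gas6 sat at 24.0 and 23.9 CPM in the VitA+ libraries and at 892 and 1799 CPM in the VitA- Col1a1+ libraries, while Pros1 stayed between 146 and 161 CPM.

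The first comparison asked how GFP-sorted cells without the vitamin A signal differed from those with it in DEN+WAD livers. Gas6 was 37.2-fold higher in the VitA- than in the VitA+ library (35.9 to 38.5), which placed it at rank 134 from the top of 13931 genes with at least 50 UMIs in the pair. Mertk was 1.97-fold higher (1.87 to 2.07), Tyro3 1.97-fold (1.60 to 2.42) and Axl 1.44-fold (1.40 to 1.49). Pros1 was 1.09-fold higher (1.06 to 1.12), but lower with TMM scaling, at -0.078 on the log2 scale. Past a 2-fold difference lay 1 of the 5 genes, against 17.9% of all genes tested. Other cell types moved with the gate: summed portal fibroblast markers went from 60.03 to 945 CPM, smooth muscle markers from 849 to 2303 CPM and endothelial markers from 355 to 2623 CPM, and all 12 endothelial markers had UMIs in both libraries. Of 11 portal fibroblast markers 11 and 10 had UMIs, and macrophage markers summed to 4.46 and 13.1 CPM.

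Restricting both libraries to Lrat-positive mesenchymal cells (10144 VitA+ and 1848 VitA- cells) left the Gas6 difference and removed most of the Mertk difference. Gas6 was at 19.2 and 677 CPM, a ratio of 35.3 (34.0 to 36.7). Mertk was at 22.9 and 25.04 CPM, a ratio of 1.09 (1.01 to 1.18). Axl kept a ratio of 1.55 (1.49 to 1.60) and Tyro3 of 1.85 (1.45 to 2.33), while Pros1 turned to 0.961 (0.932 to 0.992). In these cells 1 of the 5 genes lay past 2-fold, against 12.5% of all genes. Portal fibroblast markers still differed in these cells, at 58.01 and 770.4 CPM with only Msln at 0 in the VitA- cells, and their part in the Gas6 value was not tested. In Lrat-positive cells with no UMI of the portal fibroblast markers Thy1 and Fbln2, a subset chosen after the data were seen, Gas6 was at 14.1 and 541 CPM and its ratio was 38.4 (36.7 to 40.2).

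In chow livers the same gate comparison gave a Gas6 ratio of 75.2 (64.0 to 89.0), rank 85 from the top of 11419 genes. Axl was 3.19-fold higher in the VitA- library (2.85 to 3.57) and Tyro3 4.25-fold (2.06 to 10.2, on 8 VitA+ UMIs). Mertk, at 0.869 (0.748 to 1.01), was within counting error, and Pros1 was at 0.909 (0.843 to 0.981). Past 2-fold lay 3 of the 5 genes, against 18.4% of all genes. Here portal fibroblast markers summed to 44.1 and 2129 CPM, smooth muscle markers to 462 and 4534 CPM and endothelial markers to 804 and 878 CPM, and the part of these markers in the ratios was not tested. In Lrat-positive mesenchymal cells (245 VitA+ and 480 VitA- cells) Gas6 was at 3.87 CPM, from 23 UMIs, against 1858 CPM, a ratio of 479.7 (319.6 to 756.9). These Lrat-positive cells differed in makeup too: portal fibroblast markers summed to 42.1 and 2122 CPM, smooth muscle markers to 478 and 3835 CPM and stellate markers to 50279 and 14211 CPM, with Msln at 0 in both and Cd34, Pi16, Cnn1 and Actg2 also at 0 in the VitA+ cells. Their part in the Gas6 ratio was not tested. Axl in those cells was at 58.8 and 191 CPM, a ratio of 3.24 (2.90 to 3.64), and Mertk was lower at 0.799 (0.662 to 0.965). Again 3 of the 5 genes lay past 2-fold, against 18.4% of all genes.

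The next comparison asked how DEN+WAD and chow livers differed within a gate. In the VitA+ libraries Gas6 had a ratio of 1.002 (0.850 to 1.19) over all cells, Axl of 1.37 (1.24 to 1.53), Pros1 of 0.921 (0.864 to 0.983, but 0.070 on the log2 scale with TMM scaling) and Mertk of 0.5999 (0.528 to 0.684). Tyro3 was at 1.27, with only 8 UMIs in chow. None of the 5 genes (0 of 5) lay past 2-fold, against 11.1% of all genes. The Gas6 UMIs came from unlike classes, and 53.1% of the Gas6 UMIs of the VitA+ chow library came from 9 Pecam1-positive cells and 31.3% from 3 cells of the remainder class. In Lrat-positive mesenchymal cells Gas6 was 19.2 CPM in DEN+WAD against 3.87 CPM in chow, a ratio of 4.95 (3.29 to 7.82), and 1 of the 5 genes lay past 2-fold, against 10.2% of all genes. Axl kept 1.36 (1.22 to 1.52) and Mertk 0.726 (0.627 to 0.846) in those cells.

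In the VitA- libraries Axl, Mertk and Pros1 went the other way from the VitA+ libraries over all cells. Gas6 was lower in DEN+WAD than in chow at 0.496 (0.488 to 0.503), and Axl at 0.623 (0.595 to 0.652). Tyro3 was at 0.588 (0.448 to 0.777), Pros1 at 1.11 (1.06 to 1.16) and Mertk at 1.36 (1.24 to 1.49), whereas in the Pecam1-positive cells of these libraries Mertk was at 0.629 (0.542 to 0.733). Past 2-fold lay 1 of the 5 genes, Gas6, against 13.3% of all genes, and 0 with TMM scaling. In Lrat-positive mesenchymal cells Gas6 was at 0.364 (0.357 to 0.371), Axl at 0.650 (0.617 to 0.684) and Mertk at 0.995 (0.870 to 1.14), and again 1 of the 5 genes lay past 2-fold, against 12.8% of all genes. Within Lrat-positive cells portal fibroblast markers went from 2122 CPM in chow to 770.4 CPM in DEN+WAD and stellate markers from 14211 to 34390.3 CPM, and their part in the Gas6 and Axl values was not tested. The DEN+WAD and gate comparisons share libraries and are not independent of each other.

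**Figure D2:**
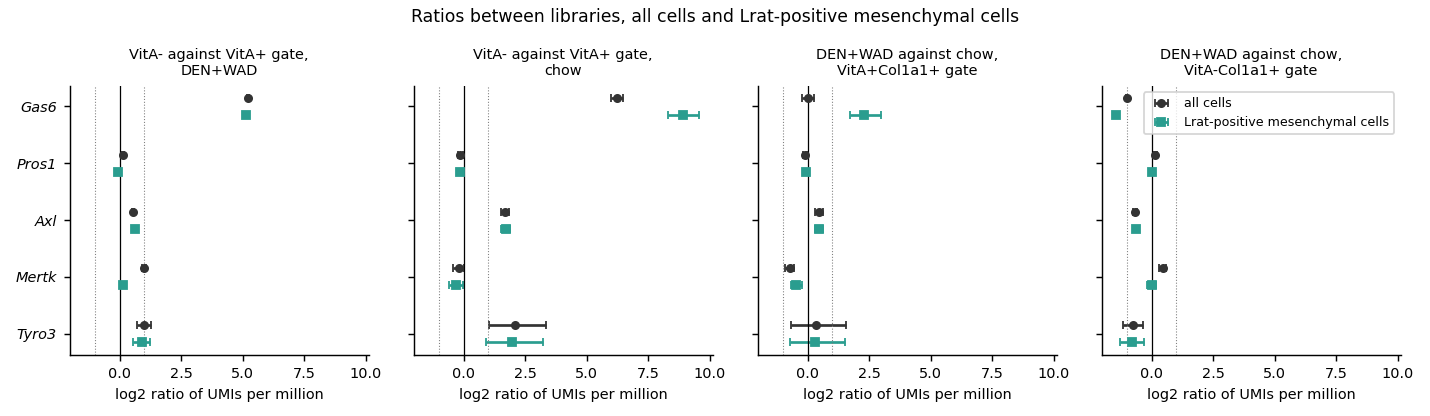
Log2 ratio of CPM for each gene in the 4 comparisons, over all cells (circles) and over Lrat-positive mesenchymal cells (squares), with 95% counting intervals and dotted lines at 2-fold. Gas6 lay far to the right in both gate comparisons (37.2-fold and 75.2-fold over all cells), and the Mertk gate difference of DEN+WAD fell from 1.97-fold to 1.09-fold in Lrat-positive cells.

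Within libraries, Gas6 was compared between mesenchymal cells with and without a Lrat UMI. These cells differed in makeup. Portal fibroblast markers summed to 2804 CPM in Lrat-negative and 770.4 CPM in Lrat-positive cells of VitA- DEN+WAD. They summed to 557 and 58.01 CPM in VitA+ DEN+WAD, 2730 and 2122 CPM in VitA- chow and 1672 and 632 CPM in labelled VitA-Col1a1-. Smooth muscle markers were at 6907 and 844 CPM in VitA+ DEN+WAD and 8475 and 3835 CPM in VitA- chow. They were at 3580 and 2535 CPM in VitA- DEN+WAD and 5246 and 4531 CPM in labelled VitA-Col1a1-. The part of these markers in the values below was not tested. In VitA- DEN+WAD cells Gas6 was 2579.5 CPM in 364 Lrat-negative and 677 CPM in 1848 Lrat-positive cells, a ratio of 3.81 (3.74 to 3.89), or 1.93 on the log2 scale against 2.54 with Lrat called after thinning. Axl had a ratio of 1.47 (1.38 to 1.57), Tyro3 of 1.67 (1.08 to 2.50), Mertk of 1.17 (0.990 to 1.37) and Pros1 of 0.975, and 1 of the 5 genes lay past 2-fold, against 10.6% of all genes. In VitA- chow cells Gas6 was nearly as high in Lrat-positive as in Lrat-negative cells, at 1858 and 1989 CPM (ratio 1.07, 1.04 to 1.10), and 0 of 5 genes lay past 2-fold, against 3.89% of all genes. In the library labelled VitA-Col1a1- Gas6 was at 571 and 211 CPM, a ratio of 2.70 (2.59 to 2.83), with 1 of the 5 genes past 2-fold, against 8.2% of all genes, but as a mean over cells its log2 ratio was 0.72, under 2-fold. The Lrat-negative cells of that library were shallow, with a median of 1458 UMIs against 11845. The same held in VitA+ DEN+WAD cells, where 113 Lrat-negative cells had a median of 845 UMIs against 13324.5. There Gas6 had a ratio of 14.2 (11.6 to 17.3), or 3.83 on the log2 scale, which was 2.40 with Lrat called after thinning and 2.85 as a mean over cells. Axl had a ratio of 2.58 (2.04 to 3.22) and Pros1 of 0.480 (0.317 to 0.699), while Tyro3, at 3.21 (0.386 to 11.7), rested on 2 UMIs. Of the 5 genes, 4 lay past 2-fold there, against 34.6% of all genes, but 1 when Lrat was called after thinning, and Axl was lower, at -0.35 on the log2 scale, as a mean over cells. Chow VitA+ cells held 2 Lrat-negative mesenchymal cells, too few for a value.

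The graded level of Lrat gave a finer view of Gas6 and Axl, in ranges chosen after the data were seen and in mesenchymal cells of at least 2000 UMIs. In VitA+ DEN+WAD cells Gas6 was at 334, 165, 36.1, 8.82 and 3.95 CPM in cells with no Lrat, up to 5, 5 to 10, 10 to 20 and above 20 Lrat UMIs per 10000. The first of these ranges held only 21 cells. In VitA- DEN+WAD cells it was at 2593, 1342, 285, 97.1 and 68.0 CPM in the same ranges. Gas6 was thus lower at each step of Lrat in both DEN+WAD gates. In VitA- chow cells it stayed high, at 1993, 2187, 1384 and 1034 CPM in the ranges with at least 20 cells, and in VitA+ chow cells it was at 4.09 and 3.64 CPM in the highest 2 ranges. The range up to 5 was higher than the range of 10 to 20 by 18.7-fold (17.0 to 20.5) in VitA+ DEN+WAD, 13.8-fold (12.96 to 14.8) in VitA- DEN+WAD, 2.11-fold (2.00 to 2.23) in VitA- chow and 2.99-fold (2.83 to 3.16) in labelled VitA-Col1a1- cells. Axl went the same way over a smaller span, from 254 to 71.2 CPM in VitA+ DEN+WAD and from 183 to 76.8 CPM in VitA- DEN+WAD cells. Cell type markers were not read by range, and the part of cell makeup in these values was not tested.

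At matched Lrat, the gate still separated Gas6 but hardly Axl in DEN+WAD. The VitA- over VitA+ ratio of Gas6 was 7.77 (6.39 to 9.55), 8.15 (7.67 to 8.67), 7.91 (7.29 to 8.59), 11.01 (10.0 to 12.1) and 17.2 (13.6 to 21.7) from no Lrat to the highest range, below the 35.3 of all Lrat-positive cells. For Axl it was 0.720 (0.571 to 0.919), 1.03 (0.961 to 1.11), 1.20 (1.10 to 1.31), 1.22 (1.14 to 1.31) and 1.08 (0.934 to 1.24). The ratios with no Lrat rested on 21 VitA+ cells for both genes. In chow only the range of 10 to 20 had enough cells in both gates. It gave a Gas6 ratio of 252.7 (144.2 to 490.3, on 12 VitA+ UMIs) and an Axl ratio of 3.37 (2.73 to 4.16). Gas6 in the 2 highest Lrat ranges was 10.9% and 7.63% of the level of the whole library in VitA- DEN+WAD and 36.8% and 16.5% in VitA+ DEN+WAD, where Axl in Pecam1-positive cells was at 9.01% and 7.20% of its library level. In VitA- chow cells the range of 10 to 20 held 57.5% of the library level of Gas6, against 5.12% for Axl in Pecam1-positive cells. The part of free RNA in these ratios was not tested.

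**Figure D3:**
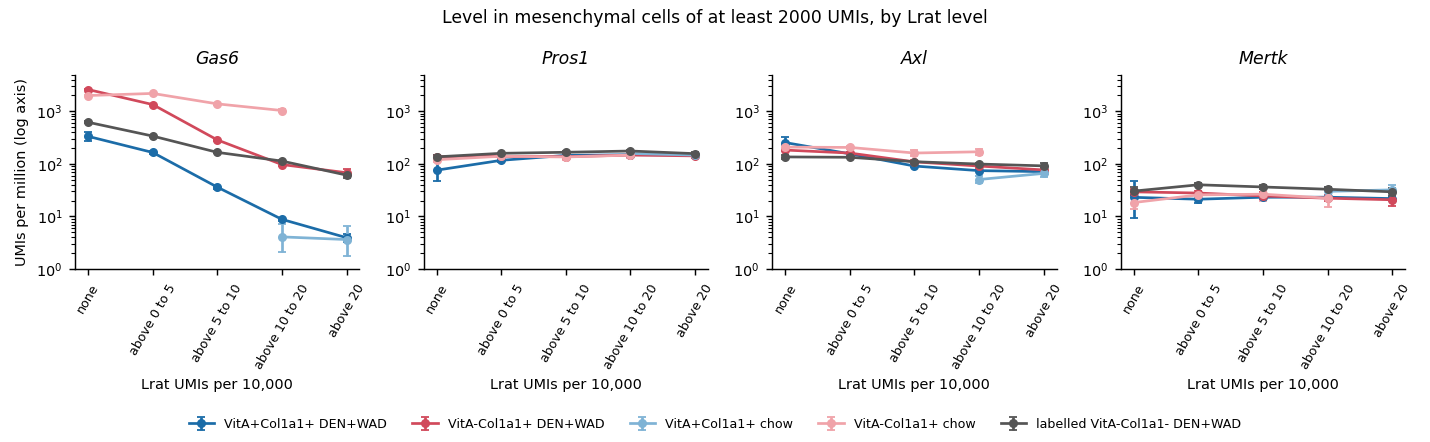
Level of 4 genes in CPM (log axis) in mesenchymal cells of at least 2000 UMIs, against Lrat UMIs per 10000 in 5 ranges, by library with 95% counting intervals, for ranges of at least 20 cells. Gas6 goes from 334 to 3.95 CPM in VitA+ DEN+WAD and from 2593 to 68.0 CPM in VitA- DEN+WAD cells but only from 1993 to 1034 CPM in VitA- chow cells. The VitA+ DEN+WAD range with no Lrat held 21 cells.

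Shares of cells with a UMI were read after thinning to 2000 UMIs, with cells under that depth left out. In Lrat-positive mesenchymal cells of labelled VitA-Col1a1- this kept 4131 of 4356 cells. Unthinned shares cover all cells of a class, so the thinned and unthinned shares are of different sets of cells. Gas6 was seen in 1.94% of Lrat-positive mesenchymal cells of VitA+ DEN+WAD, 34.8% of VitA- DEN+WAD, 0.410% of VitA+ chow, 73.2% of VitA- chow and 22.3% of labelled VitA-Col1a1-. Without thinning the shares were 6.07%, 62.2%, 2.45%, 92.7% and 43.1%, at median depths of 13324.5, 17381.5, 24541, 23216.5 and 11845 UMIs. Lymphocytes, taken as a background for these shares, gave a thinned Gas6 share of 0.885% and an unthinned share of 4.0%, at a median of 4253 UMIs. Whether they express these genes themselves was not tested. These lymphocytes all came from the library labelled VitA-Col1a1-, since the other libraries held 0, so they give no background for the Col1a1+ libraries themselves. The thinned VitA+ chow share rested on 1 of 244 cells. Axl was seen in 13.3%, 20.1%, 7.38%, 29.7% and 18.0% of thinned Lrat-positive cells in the same order, against 1.77% of lymphocytes, and in 58.7%, 77.3%, 71.8%, 95.6% and 63.0% without thinning, against 3.2%. The thinned shares come from 1 random draw. Over all draws the expected Axl share was 13.6%, 20.4%, 11.1% and 31.2% in the 4 Col1a1+ libraries in that order. The VitA+ chow draw, with 18 of 244 cells, was thus below its expected share.

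Outside the classes with C1qa, Mertk was highest in Pecam1-positive cells. They expressed all 12 endothelial markers in VitA+ DEN+WAD, a list that includes Pecam1 itself. Most held the liver sinusoidal endothelial gene Stab2 (163 of 174 cells in VitA+ DEN+WAD and 422 of 437 in VitA- DEN+WAD). Mertk was at 212 CPM in the 174 VitA+ DEN+WAD cells, 201 CPM in the 437 VitA- DEN+WAD cells, 319 CPM in 38 VitA- chow cells and 130.5 CPM in 1876 labelled VitA-Col1a1- cells. These levels were 9.28-fold (8.27 to 10.4), 8.01-fold (7.34 to 8.74), 12.7-fold (10.5 to 15.2) and 3.58-fold (3.36 to 3.81) those of Lrat-positive mesenchymal cells of the same libraries. Among Pecam1-positive cells the VitA- over VitA+ ratio of Mertk in DEN+WAD was 0.945 (0.837 to 1.07), within counting error. Their share of cells went from 1.66% to 16.0% between these libraries, and their share of the Mertk UMIs from 8.95% to 54.9%.

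The ligands in Pecam1-positive cells differed from each other. Pros1 was at 251, 305, 415 and 301 CPM in VitA+ DEN+WAD, VitA- DEN+WAD, VitA- chow and labelled VitA-Col1a1- cells, which was 1.71, 2.16, 2.98 and 1.82 times the Lrat-positive mesenchymal level. Gas6 was at 260.0, 328, 372 and 179 CPM. That was 13.6 times (12.2 to 15.1) the low stellate level of VitA+ DEN+WAD, but 0.485, 0.200 and 0.850 times the mesenchymal level of the other libraries. Gas6 therefore varied between gates in mesenchymal cells far more than in Pecam1-positive cells, where its DEN+WAD gate ratio was 1.26 and its DEN+WAD over chow ratio in the VitA- gate was 0.881 (0.770 to 1.01). Axl was nearly lacking in Pecam1-positive cells, at 5.72, 10.3, 9.42 and 9.60 CPM, and was 14.0, 12.0, 20.2 and 12.0 times higher in Lrat-positive mesenchymal cells. Relative to the whole library, that Axl level was 5.12% to 9.01% where at least 20 Pecam1-positive cells were found. VitA+ chow held only 9 such cells and is left out. Lymphocytes were found only among labelled VitA-Col1a1- cells. Their Axl stood at 5.44% of that library's level, beside 6.63% for its Pecam1-positive cells. These lymphocytes give no background for the Col1a1+ libraries. In the library labelled VitA-Col1a1-, Pecam1-positive cells with Stab2 had more Mertk than those without, at 139 and 64.5 CPM (ratio 2.15, 1.77 to 2.64), and more Pros1, at 319 and 161 CPM (ratio 1.98, 1.75 to 2.25).

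C1qa-positive cells were found in the library labelled VitA-Col1a1-, as 933 cells with a median of 8843 UMIs. Their macrophage markers, a list that includes C1qa itself, summed to 26254 CPM. Hepatocyte markers summed to 11894 CPM, and their part in the values below was not tested. Axl was at 339 CPM in them, 2.95 times (2.83 to 3.07) its level in Lrat-positive mesenchymal cells and 35.3 times (29.9 to 42.0) its level in Pecam1-positive cells. Mertk was at 170.1 CPM, 4.66 times (4.38 to 4.96) the mesenchymal level and 1.30 times (1.23 to 1.39) the Pecam1-positive level. The ligands were low, with Gas6 at 32.3 CPM and Pros1 at 25.4 CPM, both 0.153 times the mesenchymal level. Both ligands were thus lower in these cells than in mesenchymal cells, and Axl and Mertk higher. Tyro3 was lower, at 0.249 CPM (3 UMIs) against 2.82 CPM in Lrat-positive mesenchymal cells. Cells with the Kupffer cell lectin Clec4f (499 cells) had more Axl and Mertk than those without (434 cells). Axl was at 408 and 244 CPM (ratio 1.67, 1.56 to 1.79) and Mertk at 208 and 118 CPM (ratio 1.77, 1.61 to 1.95). Gas6 went the other way, at 19.2 and 50.4 CPM, a ratio of 0.380. A further 887 cells had UMIs of both Pecam1 and C1qa, with Axl at 318 CPM, Mertk at 200.3 CPM, Pros1 at 120.3 CPM and Gas6 at 68.4 CPM. They were kept apart, since no doublet caller was run. Thinned, Axl was seen in 46.3% of C1qa-positive cells and Mertk in 25.8%, against 1.77% and 0.885% of lymphocytes, and without thinning in 58.2% and 53.9%, against 3.2% and 1.60%. The thinned shares rest on 687 of the 933 C1qa-positive cells, those of at least 2000 UMIs.

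**Figure D4:**
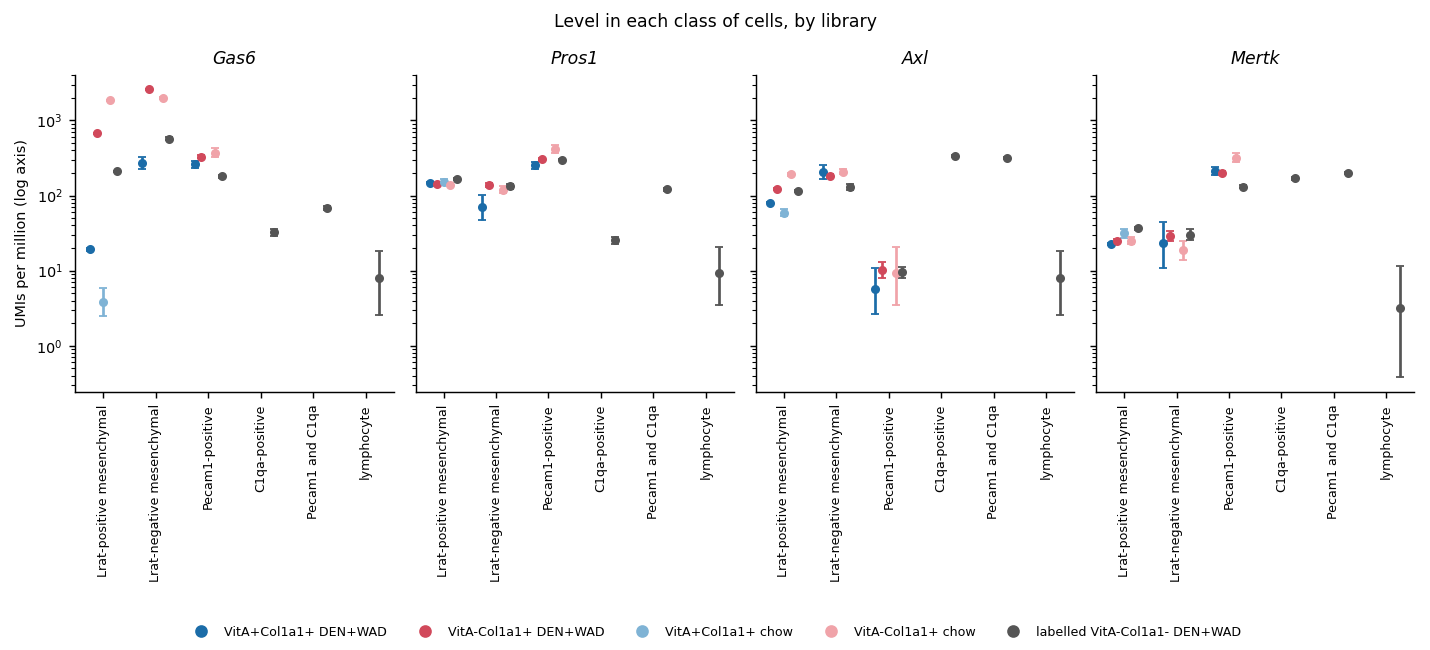
Level of 4 genes in CPM (log axis) in each class of cells with at least 20 cells, by library, with 95% counting intervals. Axl is at 5.72 to 10.3 CPM in Pecam1-positive cells and 339 CPM in C1qa-positive cells, Mertk is high in both, and Gas6 in Lrat-positive mesenchymal cells runs from 3.87 to 1858 CPM.

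The UMIs of a gene came from different classes in different libraries. Lrat-positive mesenchymal cells gave 99.3% of the Axl UMIs of VitA+ DEN+WAD, where they held 98.5% of all UMIs. In the library labelled VitA-Col1a1- they held 51.8% of all UMIs and gave 41.1% of the Axl UMIs, C1qa-positive cells 26.6% and cells with both Pecam1 and C1qa 27.0%. For Mertk in that library, Pecam1-positive cells gave 22.3%, C1qa-positive cells 23.3% and cells with both 29.6%. Gas6 of VitA- DEN+WAD was 54.5% from Lrat-positive and 38.7% from Lrat-negative mesenchymal cells, and Pros1 there was 25.4% from Pecam1-positive cells. Against VitA-Col1a1+ DEN+WAD, the library labelled VitA-Col1a1- had 0.198 times the Gas6 (0.195 to 0.202), 1.26 times the Axl and 1.70 times the Mertk.

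**Figure D5:**
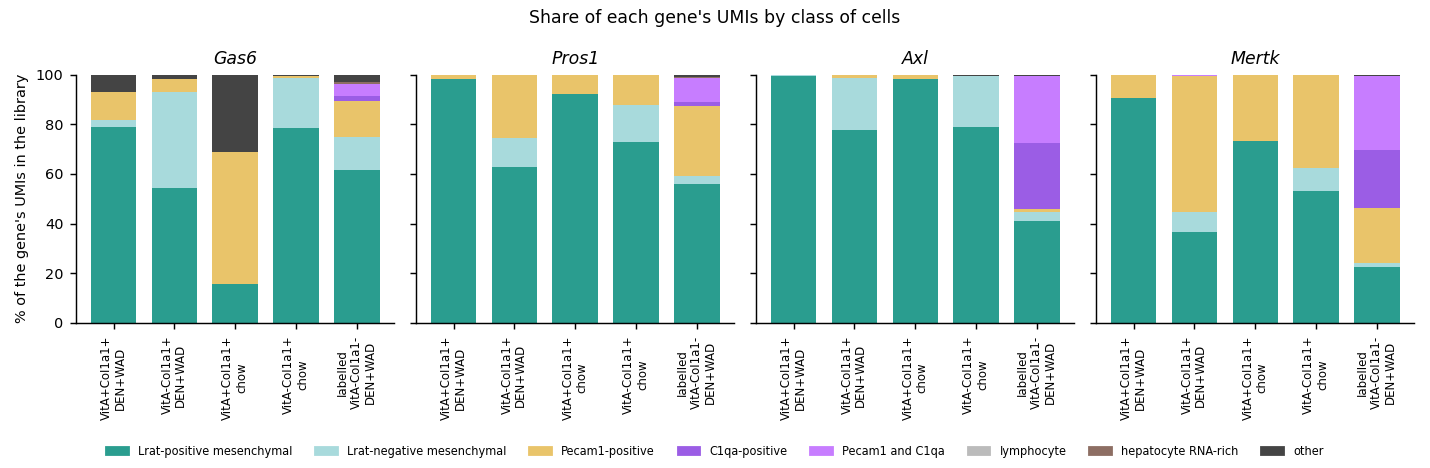
Percent of each gene's UMIs that came from each class of cells, as stacked bars by library. Pecam1-positive cells give 54.9% of Mertk UMIs in VitA- DEN+WAD against 8.95% in VitA+ DEN+WAD, and C1qa-positive cells appear only in the library labelled VitA-Col1a1-.

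Ligand and receptor UMIs also met in the same cells. Without thinning, Gas6 and Axl were both seen in 4.58% of Lrat-positive mesenchymal cells of VitA+ DEN+WAD, 53.5% of VitA- DEN+WAD, 90% of VitA- chow and 30.1% of labelled VitA-Col1a1-. After thinning, 37 VitA+ DEN+WAD cells had both where the product of the separate shares gave 26.2, and 176 VitA- DEN+WAD cells had both where it gave 128. In VitA- chow the numbers were 105 and 104, and in labelled VitA-Col1a1- cells 168 and 165. Gas6 and Mertk in Pecam1-positive cells of labelled VitA-Col1a1- met in 139 cells against a product of 106, and in VitA- DEN+WAD in 55 cells against 60.2. Pros1 and Mertk met in 178 Pecam1-positive cells of labelled VitA-Col1a1- against 169.6. These counts are descriptions, since cells of a library share depth and free RNA.

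The genes around this pathway were read as lists by counts past 2-fold in the VitA- over VitA+ comparisons of DEN+WAD and chow. Only genes with at least 50 UMIs in the pair of libraries were counted, so some lists lost genes. Vitamin K-dependent carboxylation, which gives Gas6 and protein S their active Gla domain, had 0 of 7 genes past 2-fold in both diets, with medians of 0.11 and 0.10 (log2 ratio) beside 0.13 and 0.08 over all genes. The carboxylase Ggcx was at 21.7, 25.7, 24.9 and 29.4 CPM in VitA+ DEN+WAD, VitA- DEN+WAD, VitA+ chow and VitA- chow, and the epoxide reductase Vkorc1 at 142, 153, 108 and 147 CPM. Genes of receptor shedding had 0 of 5 past 2-fold in DEN+WAD and 1 of 5 higher in chow. Of the signalling genes downstream of TAM receptors, 2 of 13 were higher in each diet and 0 lower, a share near that of all genes, of which 2177 of 13931 were higher in DEN+WAD and 1487 of 11419 in chow. Twist1, a transcription factor induced downstream of Axl, was 2.88 and 2.02 times higher.

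Other Gla-domain proteins were read next. The list held 13 genes, and those with at least 50 UMIs in the pair were tested. Of these, 5 of 8 were higher in DEN+WAD and 2 of 5 in chow, with 0 lower. Past 2-fold in either direction lay 17.9% and 18.4% of all genes under the same filter. A gene could pass the filter only through the library where it was high. Mgp, the matrix Gla protein that inhibits calcification, went from 19.6 to 1058 CPM in DEN+WAD (ratio 53.9, 52.0 to 56.0). In chow it had 0 UMIs in the VitA+ library and 2295 CPM in the VitA- library. It thus passed the filter in chow through the VitA- library alone. Prrg3, a transmembrane Gla protein, was 4.54 and 7.25 times higher. The remaining 3 that passed in DEN+WAD, F2, F10 and Proc, encode coagulation proteins of hepatocytes, and hepatocyte markers went from 137 to 445 CPM between those libraries, a part that was not tested. These 3 genes were looked at after their values were seen.

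The list of other phosphatidylserine receptors and bridging proteins held 24 genes, read with the same filter. In DEN+WAD 10 of 15 were higher and 1 lower, and in chow 4 of 13 were higher and 1 lower. Their medians were 1.39 and 0.27 (log2 ratio), beside 17.9% and 18.4% of all genes past 2-fold. The scavenger receptor Colec12 was 14.6 and 22.4 times higher, the galectin Lgals3 10.4 and 47.1 times, and the engulfment adaptor Gulp1 2.21 and 3.08 times. Integrin subunit Itgb3 was lower, at 72.5 and 20.3 CPM in DEN+WAD (ratio 0.280) and 97.3 and 5.33 CPM in chow (ratio 0.0548). Endothelial markers moved with the DEN+WAD counts as given above, and their part was not tested. Of nuclear receptors and factors linked to Mertk and Axl, 3 of 15 were higher in DEN+WAD, and 2 were higher and 3 lower of 14 in chow, the first near the 17.9% and the second beside the 18.4% of all genes. Of the genes that expose or announce dying cells, 1 of 7 was higher in each diet, a share near that of all genes: the chemokine Cx3cl1, at 2.49 and 5.10 times.

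Likeness of pattern was measured as Pearson's r of log2(CPM + 5) over 18 class-by-library units of at least 50 cells, among 6565 genes. These units share libraries, so the values are descriptions. The genes most like Gas6 were Cgnl1 (r = 0.91), Fmo2 (0.90) and Cav1 (0.89). For Pros1 they were Myo10 (0.98), Prex2 (0.97) and Msrb3 (0.97). For Axl they were Pltp (0.93), Ckb (0.93) and Lpl (0.90), and for Mertk Rab5c (0.96), Arl8b (0.95) and Cttnbp2nl (0.95). For Tyro3 they were Fnta (0.83), Ndufa5 (0.81) and Ildr2 (0.81), at few UMIs. Between the members themselves r was 0.17 for Gas6 and Axl, 0.60 for Pros1 and Mertk and 0.75 for Gas6 and Tyro3. The last value rests on few Tyro3 UMIs. The highest Tyro3 level of a unit, 11.1 CPM, came from 5 UMIs in the remainder class of VitA- DEN+WAD.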

How the data were processed

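Cells were prepared with a 10x Genomics 3' protocol. The deposited files hold UMI counts per gene and cell that the authors made with Cell Ranger, version 3.1.0 per the file headers of 4 libraries and 6.1.2 where the label is VitA-Col1a1-, so this difference cannot be told apart from that group. All deposited barcodes were used, with no doublet caller. UMIs were summed over cells and scaled to UMIs per 1000000, with exact Poisson intervals for levels, exact conditional binomial intervals for ratios and Clopper-Pearson intervals for shares, all at 95%. The script was tested on simulated data. With 1 library per group no test was made, and called means past 2-fold among genes with at least 50 UMIs in the pair. Classes were assigned in the order mesenchymal, Pecam1, C1qa, both, lymphocyte (Cd3e or Cd79a), hepatocyte RNA-rich (Alb, Apoa1 and Ttr of at least 200 per 10000) and remainder. A class needed 20 cells for a level. Genes named outside the 5 members were up to 4 per list past 2-fold the same way in both gate comparisons with at least 10 CPM in a Col1a1+ library, and the 3 genes of highest r per member. Ggcx, Vkorc1, F2, F10 and Proc stand outside that rule. The members and lists were chosen with earlier results of these data known. Coordinates came from GENCODE M21 (GRCm38), where 30934 of 31053 gene IDs were found, and promoters from RefSeq (GRCm38.p6), where all 5 members matched. Alternatives were TMM scaling, means over cells, other class thresholds, thinning and subsets of cells. Python 3.11.15, numpy 2.4.6, scipy 1.17.1, pandas 2.3.3, R 4.3.3 and edgeR 4.0.16 (for TMM factors alone) were used.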

Additional observations from a re-analysis of the deposited data

Results flagged for a closer look

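Several genes moved in opposite directions under the same contrast in 2 settings. None of these differences was tested, since each group held 1 library. The VitA- over VitA+ ratio of Pros1 over all cells was 1.09 in DEN+WAD and 0.909 in chow, and that of Mertk in Lrat-positive mesenchymal cells was 1.09 in DEN+WAD and 0.799 in chow. The DEN+WAD over chow ratio over all cells was 0.921 in the VitA+ gate and 1.11 in the VitA- gate for Pros1, 1.37 and 0.623 for Axl, and 0.5999 and 1.36 for Mertk. In Pecam1-positive cells of the VitA- gate Mertk was at 0.629. In Lrat-positive mesenchymal cells the DEN+WAD over chow ratio of Gas6 was 4.95 in the VitA+ gate and 0.364 in the VitA- gate, and that of Axl was 1.36 and 0.650. The Gas6 value of the VitA+ gate rests on 23 chow UMIs. With TMM scaling the DEN+WAD gate value of Pros1 and its VitA+ diet value change direction.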

How the results depend on the processing

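No paired analysis was possible because each group held 1 library. The number of the 5 genes past 2-fold between the gates in DEN+WAD was 2 in place of 1 with a mean over cells. It was also 2 in mesenchymal cells alone, against 14.3% of all genes. Between diets in the VitA+ gate it was 1 in place of 0 in mesenchymal cells alone (10.3% of all genes) or Lrat-positive cells alone (10.2%). In the VitA- gate it was 0 in place of 1 with TMM scaling or in mesenchymal cells alone (11% of all genes). Between Lrat-negative and Lrat-positive cells of VitA+ DEN+WAD, 4 became 1 with Lrat called after thinning and 2 with a mean over cells. The thinned classes were made of other cells, as given above. The share of all genes was not computed with a mean over cells, TMM scaling or thinning. With every Pecam1-positive cell taken, Mertk over Lrat-positive mesenchymal cells was 5.53 in VitA+ DEN+WAD, 6.35 in VitA- DEN+WAD, 7.98 in VitA- chow and 3.93 in the library labelled VitA-Col1a1-. Axl in C1qa-positive over those cells was 2.22 with every C1qa cell and 3.51 with at least 3 C1qa UMIs. At full depth the observed over product count of Gas6 and Axl in VitA- DEN+WAD was 1.11. TMM scaling shifted log2 ratios by -0.20 and -0.09 in the DEN+WAD and chow gate comparisons and by 0.19 and 0.08 between diets in the VitA+ and VitA- gates. Reversed log2 ratios were those of Pros1 between gates in DEN+WAD (-0.078 with TMM, -0.061 in mesenchymal cells, -0.057 in Lrat-positive cells and -0.033 in those without Thy1 or Fbln2) and between diets in the VitA+ gate (0.070 with TMM). Mertk between diets in the VitA- gate was -0.0067 in Lrat-positive cells. Between Lrat classes, Axl was -0.35 (VitA+ DEN+WAD) and -0.065 (labelled VitA-Col1a1-) with a mean over cells, and Mertk 0.10 (labelled VitA-Col1a1-) at a mesenchymal threshold of 10. Axl in Pecam1-positive over mesenchymal cells of that library was 1.24 with every Pecam1 cell, a set that then holds macrophages and mesenchymal cells. Pros1 and Tyro3 in VitA+ DEN+WAD were 1.02 times the product at full depth. The causes were not tested. Of other single values, 277 moved little and 72 moved more. A mean over cells also changed the sign of log2 ratios whose intervals included 0: Gas6 between diets in the VitA+ gate (-0.31), and between Lrat classes Mertk and Tyro3 in VitA+ DEN+WAD (-0.040 and -0.081) and in VitA- chow (0.26 and -0.030) and Tyro3 in labelled VitA-Col1a1- (-1.21). Depth limits Tyro3 (8 UMIs in VitA+ chow) and Gas6 in VitA+ chow.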

Other observations

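Cells outside the named classes were split by Epcam, a marker of cholangiocytes, after the data were seen. Cells with an Epcam UMI had cholangiocyte markers summing to 19148 to 28071 CPM and Gas6 at 1334 CPM in VitA+ DEN+WAD (19 cells) and 659 CPM in the library labelled VitA-Col1a1- (67 cells), against 96.2 and 43.3 CPM in cells of the same remainder without Epcam. In the other libraries 2 to 11 such cells were found. Axl was at 0 to 11.9 CPM in the Epcam-positive cells of the libraries, including those with 2 to 11 such cells.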
